A study of Mus musculus with 20 samples.

Results

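GATA6 regions at 8 naive pluripotency factor loci were examined: *Klf2*, *Klf4*, *Klf5*, *Tfcp2l1*, *Prdm14*, *Tbx3*, *Nr5a2* and *Zfp42*. A region counted as a member if its midpoint lay within 100 kb of the start of a member gene (GENCODE vM21, mm10), which gave 95 of the 42403 GATA6 regions of the table. *Tbx3* had 23 of them, *Klf4* and *Klf5* 18 each, *Klf2* and *Tfcp2l1* 9 each, *Prdm14* 7, *Nr5a2* 6 and *Zfp42* 5. The member was also the nearest protein-coding gene for 91 of the 95, and the exceptions all lay at *Klf2*. Proximity does not show that a region controls the gene, and no expression was analysed here.

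Chromatin accessibility was measured by ATAC-seq, which tags open chromatin with the Tn5 transposase, in 20 samples. KH2 mouse ES cells (C57BL/6 x 129/Sv) with a doxycycline-inducible *Gata6* cassette were grown on feeders in serum and LIF, untreated (d0) or with 1 µg/mL doxycycline, and collected at 8 h, 16 h, d1, d2 (3 samples each, as at d0) and d4 (2 samples). The cassette is carried at d0 too. The inducible cells were picked as clones of KH2, and the labels do not say which clone each sample came from. XEN samples (3) were of line X10 (CD1), wild type, untreated and without LIF, so that XEN and ES cells differ in strain, line and medium as well as in cell state. Times follow the sample titles. The treatment labels instead list 16, 24, 48 and 72 h of doxycycline for the groups titled 8 h, 16 h, d1 and d2.

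XEN cells are stem cells resembling the primitive endoderm (PrE), the lineage that GATA6 specifies next to the pluripotent epiblast. The naive state is held by a network in which Klf2, Klf4 and Klf5 are zinc-finger activators with shared targets, Tfcp2l1 is a grainyhead-like activator downstream of LIF, Prdm14 represses DNA methylation and differentiation genes, Tbx3 is a T-box factor with a described role in extraembryonic endoderm too, and Nr5a2 is a nuclear receptor that can drive *Pou5f1*. *Zfp42* encodes Rex1, a marker of naive cells. OCT4, SOX2 and ESRRB, the pluripotency TFs (PTF) profiled in the study, bind enhancers around these genes in ES cells.

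Accessibility is in RPM, the reads within a region scaled to the size of the library and not divided by its width. The table holds the average of each group. Single libraries could be recovered from these averages for 24727 regions, of which 75 were members: all regions of *Klf2*, *Tfcp2l1*, *Prdm14*, *Nr5a2* and *Zfp42*, 17 of 18 at *Klf4*, 22 of 23 at *Tbx3* and 0 of 18 at *Klf5*. *Klf5* is therefore described from averages, with no error. Library sizes among the 16 recovered ran from 181.2 M to 288.4 M reads, with 43.3 M in the smaller XEN library. The d0 average could not be resolved, so that tests take 8 h as the baseline and every change from d0 is a description. Regions were called at an adjusted p under 0.05 and a log2 change over 1 of RPM + 0.03 (limma, adjusted over all 24727 regions). In these bulk samples, fewer cells with an open region and a less open region in every cell cannot be told apart.

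Libraries of a group differed in their total signal at GATA6 regions. In the recovered regions the 8 h libraries held 2650, 4973 and 3638 RPM, the d2 libraries 6651 to 9505 and the d4 libraries 6320 and 6012. The median of all recovered regions stood 0.31 above 8 h on the log2 scale at d1, 0.70 at d2 and 0.52 at d4. Calls are therefore also given after each library was centred on its median region, which reads a change relative to the other GATA6 regions.

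The makeup of the members is given beside that of the table. Transient regions, where GATA6 binds early and is then lost, were 49 of the 95 (51.6%, against 38.4% of all regions), Early&Constant regions, bound early and throughout, 30 (31.6% against 28.0%) and Late regions 16 (16.8% against 33.6%). PTF peaks at d0 were present in 37 (38.9% against 20.8%) and ectopic PTF peaks, which appear only during induction, in 23 (24.2% against 16.6%). SOX17, a PrE factor, was called at 50 (52.6% against 44.5%). The authors' accessible class at d0 held 17 (17.9% against 7.43%) and their promoter class of ES cell histone marks 15 (15.8% against 6.88%). The median member was 708 bp wide and stood at 0.181 RPM at d0, against 524 bp and 0.0777 RPM over all regions. Midpoints lay between genes at 46 regions, in introns at 37 and in exons at 12.

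The authors' best GATA6 motif match was present in 79 members (83.2%, against 89.7% of all regions), an OCT:SOX match in 72 (75.8% against 71.5%), a SOX17 match in 64 (67.4% against 69.2%) and an ESRRB match in 49 (51.6% against 36.3%). The sequences of 14 regions on which the results below turn are shown to let their GATA6 sites be read side by side. Each is a 61-base window around the authors' best GATA6 match, whose 13 bases are in capitals, read 5′ to 3′ on the strand of the match (RefSeq GRCm38.p6, the sequence of mm10). These 7 regions had lower accessibility at d4 than at d0.
Klf2 -2.8 kb (chr8:72316226-72316286, plus strand): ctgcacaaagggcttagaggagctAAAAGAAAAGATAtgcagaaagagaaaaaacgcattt
Klf4 +54.5 kb (chr4:55478798-55478858, plus strand): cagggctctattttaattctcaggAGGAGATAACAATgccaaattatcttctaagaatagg
Tfcp2l1 +14.9 kb (chr1:118642941-118643001, plus strand): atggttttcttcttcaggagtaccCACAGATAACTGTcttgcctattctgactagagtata
Prdm14 -4.8 kb (chr1:13132070-13132130, plus strand): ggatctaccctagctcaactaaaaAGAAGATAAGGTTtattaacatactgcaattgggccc
Tbx3 +39.4 kb (chr5:119709940-119710000, minus strand): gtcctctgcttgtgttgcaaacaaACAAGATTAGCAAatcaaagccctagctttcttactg
Nr5a2 +7.6 kb (chr1:136952611-136952671, minus strand): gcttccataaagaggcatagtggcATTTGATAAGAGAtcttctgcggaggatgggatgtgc
Zfp42 -14.0 kb (chr8:43321153-43321213, plus strand): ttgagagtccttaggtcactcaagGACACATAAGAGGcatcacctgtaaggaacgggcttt
These 5 regions had higher accessibility at d4 than at d0.
Klf2 +96.9 kb (chr8:72416011-72416071, plus strand): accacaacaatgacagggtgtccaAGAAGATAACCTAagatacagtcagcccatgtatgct
Klf4 +16.3 kb (chr4:55515965-55516025, minus strand): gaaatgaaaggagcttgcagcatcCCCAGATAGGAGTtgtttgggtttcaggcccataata
Klf5 -52.8 kb (chr14:99246000-99246060, minus strand): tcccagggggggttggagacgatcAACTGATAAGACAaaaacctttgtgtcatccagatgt
Nr5a2 -0.2 kb (chr1:136960616-136960676, plus strand): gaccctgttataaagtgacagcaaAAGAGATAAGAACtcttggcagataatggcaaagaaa
Zfp42 +26.1 kb (chr8:43280742-43280802, minus strand): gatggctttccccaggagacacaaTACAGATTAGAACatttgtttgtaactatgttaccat
The last 2 had the highest d0 signal of their locus.
Tfcp2l1 +21.3 kb (chr1:118649611-118649671, minus strand): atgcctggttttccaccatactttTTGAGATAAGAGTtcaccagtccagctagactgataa
Tbx3 -82.8 kb (chr5:119588420-119588480, minus strand): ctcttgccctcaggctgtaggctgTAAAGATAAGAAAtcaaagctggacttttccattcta

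Regions are named by the distance of their midpoint from the gene start, with a minus sign upstream. The letters GATAA stood within the 13 bases in 9 of the 14 windows, in 4 of the 7 that went down and in 3 of the 5 that went up. The 14 are a selection of regions with a match, and GATAA was not counted over all regions. For *Prdm14* the nearest region is shown in place of the largest fall, Prdm14 +52.4 kb. Prdm14 -18.7 kb (largest rise) and Klf5 -24.7 kb (largest fall) had a match and are not shown. The counts for windows that went down and up are therefore no comparison of falls with rises. Tfcp2l1 -94.4 kb and Tbx3 -2.2 kb, the largest rises of their loci, had no listed GATA6 match. Scores of these 14 matches ran from 7.02 at Tfcp2l1 +14.9 kb to 14.5 at Tbx3 -82.8 kb, with 14.4 at Nr5a2 -0.2 kb. An OCT:SOX match was listed in 9 of the 14 regions. At Tbx3 +39.4 kb the GATA6 match overlapped the OCT:SOX match by 8 bases on opposite strands, and at Klf5 -52.8 kb they were 7 bases apart. Elsewhere they lay further apart, up to 2251 bases at Tbx3 -82.8 kb. Over the members with both matches (61 regions) the median spacing was 139 bases, and 3 overlapped (4.92%, against 4.61% of all regions with both). The OCT:SOX matches of 4 regions with PTF at d0, 15 bases each, are given below and scored 11.7 to 15.2. Lower-scoring matches in other shown regions with PTF at d0 are left out. They scored 8.66 at Tfcp2l1 +14.9 kb, 10.6 at Prdm14 -4.8 kb and 5.15 at Nr5a2 +7.6 kb.
Klf4 +54.5 kb OCT:SOX (chr4:55477540-55477554, minus strand): ATTTGATATGCAAAG
Tfcp2l1 +21.3 kb OCT:SOX (chr1:118648180-118648194, minus strand): CTTTGTGATGTAAAC
Tbx3 +39.4 kb OCT:SOX (chr5:119709957-119709971, plus strand): CTTTGATTTGCTAAT
Tbx3 -82.8 kb OCT:SOX (chr5:119586178-119586192, plus strand): CTTTGTTGTGCACAG

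Accessibility around the naive factor genes was highest at d2 at most regions and stood lower at d4. The median change of all regions was also highest at d2. In the averages of the induction groups, 53 of the 95 regions peaked at d2, 14 at d1 and 11 at d4, while 8 were highest at d0. Peak groups were not counted over all regions. The median change from d0 was 0.33 at d1, 0.67 at d2 and 0.21 at d4 on the log2 scale, against 0.31, 0.69 and 0.52 over all regions. The members thus stood close to the table at d1 and d2 and below it at d4. In XEN cells their median was -0.22, against 0.40 over all regions.

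At d1, 3 regions were called higher than at 8 h (6.71% of all regions tested were) and 0 lower (0.0283%). Regions with an unadjusted p under 0.05 numbered 10 upward and 0 downward, and limma-voom called 3 and 0. Shares over all regions are not given for these counts. The 3 were Klf2 +96.9 kb, Klf4 +16.3 kb and Klf4 -51.3 kb. The count was 0 after centring (1.53% of all regions tested), 0 without the 8 h library of 2650 RPM or the d1 library of 6937 RPM, and 0 with the own variance of each region in place of the one limma pooled. At 16 h against 8 h limma called 0 members in either direction (0.00809% of all regions tested), with 1 at an unadjusted p under 0.05, and voom also called 0.

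At d2, 25 of the 75 members were called higher (38.0% of all regions tested) and 2 lower (1.27%). Every locus with recovered libraries had at least 1 region called higher: *Tbx3* 8, *Klf4* 6, *Tfcp2l1* 4, *Klf2*, *Prdm14* and *Nr5a2* 2 each and *Zfp42* 1. After centring, 10 of the 25 were still called (14.4% of all regions tested were called higher) and 13 were called lower (14.8%). The 10 were at *Klf4* (5), *Klf2* (2), *Tfcp2l1*, *Tbx3* and *Zfp42* (1 each), with 0 at *Prdm14* and *Nr5a2*. Without centring, the d2 libraries lay above all 8 h libraries at 35 of the 75 (50.2% of all regions tested) and below all at 3 (4.82%). Both regions called lower at d2 were at *Klf2*, and 1 was without the 8 h library of 4973 RPM.

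At d4, 17 members were called higher (31.7% of all regions tested) and 14 lower (7.09%). Members had more d0 signal to lose than all regions (median 0.181 against 0.0777 RPM), and these shares were not matched for it. The 14 were spread over all 7 loci tested: *Klf2* 4, *Tfcp2l1* 3, *Prdm14* and *Tbx3* 2 each, and *Klf4*, *Nr5a2* and *Zfp42* 1 each. So were the 17: *Klf4* 6, *Tfcp2l1* 4, *Klf2* and *Tbx3* 2 each, and *Prdm14*, *Nr5a2* and *Zfp42* 1 each. After centring, all 14 were called lower again within a total of 24 (16.7% of all regions tested), and 11 of the 17 were called higher (17.0%). The d4 libraries lay above all 8 h libraries at 29 of the 75 (48.5% of all regions tested) and below all at 24 (14.7%). The count of 14 was 9 without the 8 h library of 4973 RPM and 8 without the d4 library of 6320 RPM. Of the 25 regions higher at d2, 14 were also higher at d4, an overlap that was not counted over all regions.

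**Figure D1:**
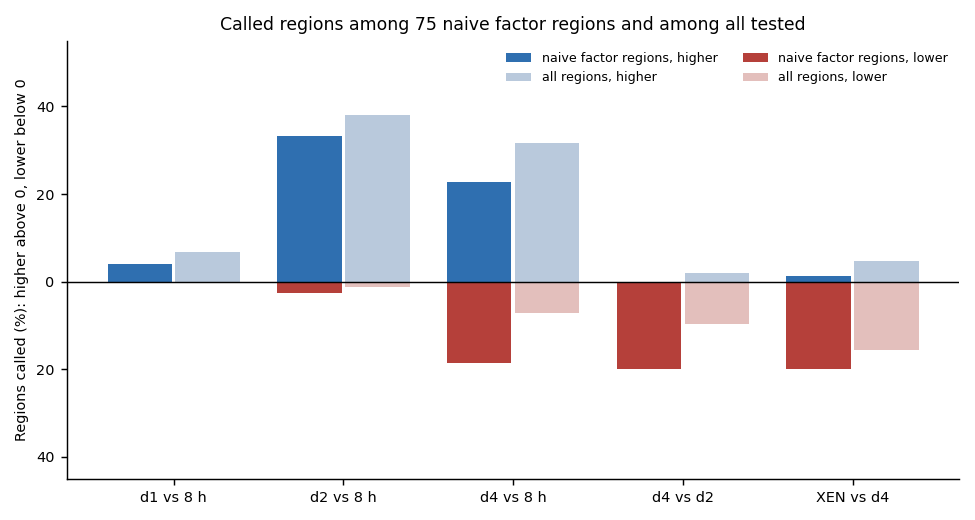
Percent of regions called by limma in each comparison, higher above 0 and lower below 0, for the 75 naive factor regions with recovered libraries (dark) and all 24727 regions tested (pale). At d4 against 8 h the lower calls were 14 of 75 among the naive factor regions, against 7.09% of all regions.

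The regions that fell by d4 were largely those that PTF held in ES cells, a class that also had more signal at d0. The median d0 signal of members was 0.398 RPM with PTF at d0, 0.195 with ectopic PTF and 0.0735 with no PTF. With 0.03 RPM added, a region of low signal has less room to fall, and calls were not matched for d0 signal. The 75 tested held 30 regions with PTF at d0, 15 with ectopic PTF, 30 with no PTF and, across these, 39 with SOX17. Of the 14, 12 had PTF peaks at d0, 13 were Transient and 4 had SOX17. Of the 17 that rose, 1 had PTF at d0, 7 had ectopic PTF, 9 had no PTF and 14 had SOX17. In the averages the 37 regions with PTF at d0 had a median change of -0.74 from d0 to d4 (all such regions -0.44), the 23 with ectopic PTF 0.84 (all 1.27) and the 35 with no PTF 0.41 (all 0.55). Presence of SOX17 split the PTF class further. The 16 regions with PTF at d0 and no SOX17 stood at -1.18 (all -0.94), and the 21 with both at -0.02 (all 0.29). In 23 Transient regions with PTF at d0 the median was -1.18 (all such regions -0.89), and in 14 Early&Constant regions with PTF at d0 it was 0.18 (all 0.45). After centring, 20 of the 30 tested regions with PTF at d0 were called lower at d4 and 0 higher, against 1 and 6 of the 15 with ectopic PTF and 3 and 5 of the 30 with no PTF. Calls were not counted over all regions of these classes. The medians of all regions stood in the same order of PTF class, so that this order is not particular to the naive factor loci. The classes were made by the authors from ChIP-seq along the same induction, and no test was made between them.

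**Figure D2:**
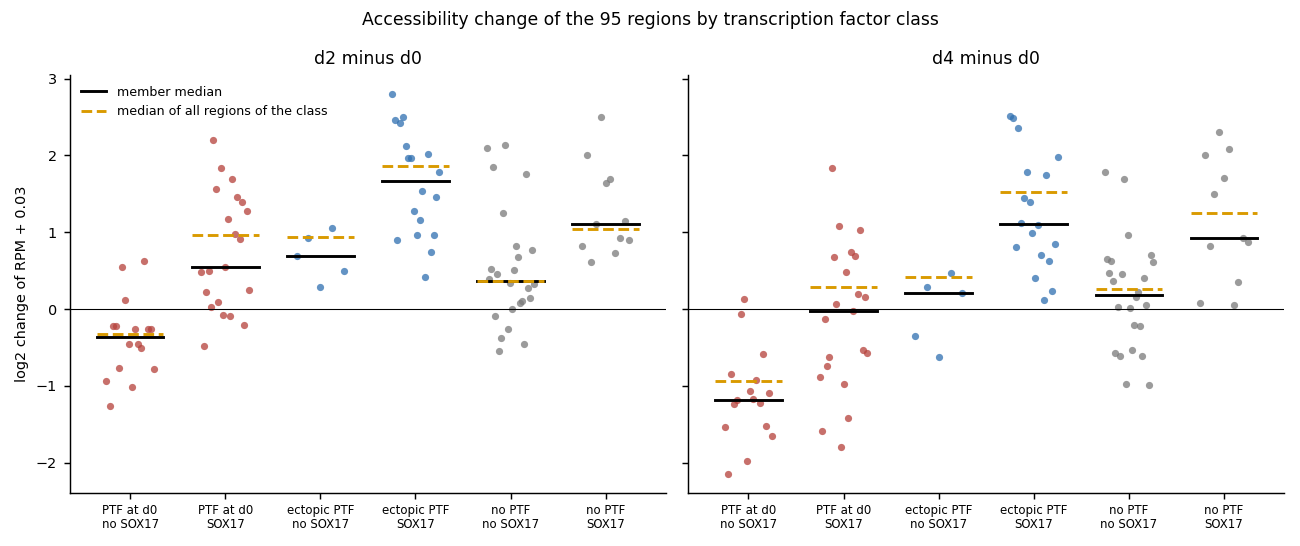
Log2 change of RPM + 0.03 from d0 to d2 (left) and to d4 (right) for each of the 95 regions (points), grouped by PTF and SOX17 class, with the member median (black line) and the median of all regions of the class (dashed). At d4 the class with PTF at d0 and no SOX17 had a member median of -1.18 and the class with ectopic PTF and SOX17 1.11.

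The 2 directions were found side by side within single loci, and the sign followed no simple order of distance. At *Klf4*, the 5 regions with PTF at d0 lay between 50.2 and 77.4 kb downstream of the gene start. Their averages changed by -1.24 to -0.62 from d0 to d4. At this locus limma called 1 region lower at d4 against 8 h, Klf4 +54.5 kb, and 6 higher (4 and 4 after centring). Among those higher before centring were 3 of the 6 ectopic PTF regions, at +16.3, -9.7 and -51.3 kb. At *Klf2*, the 4 regions that fell were at -47.5, -6.0, -2.8 and +15.2 kb, and the 2 that rose were at +57.8 and +96.9 kb, both in introns of *Eps15l1*. The nearest protein-coding gene of both was *Eps15l1* and not *Klf2*, and that of Klf2 -47.5 kb was *Ap1m1*.

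**Figure D3:**
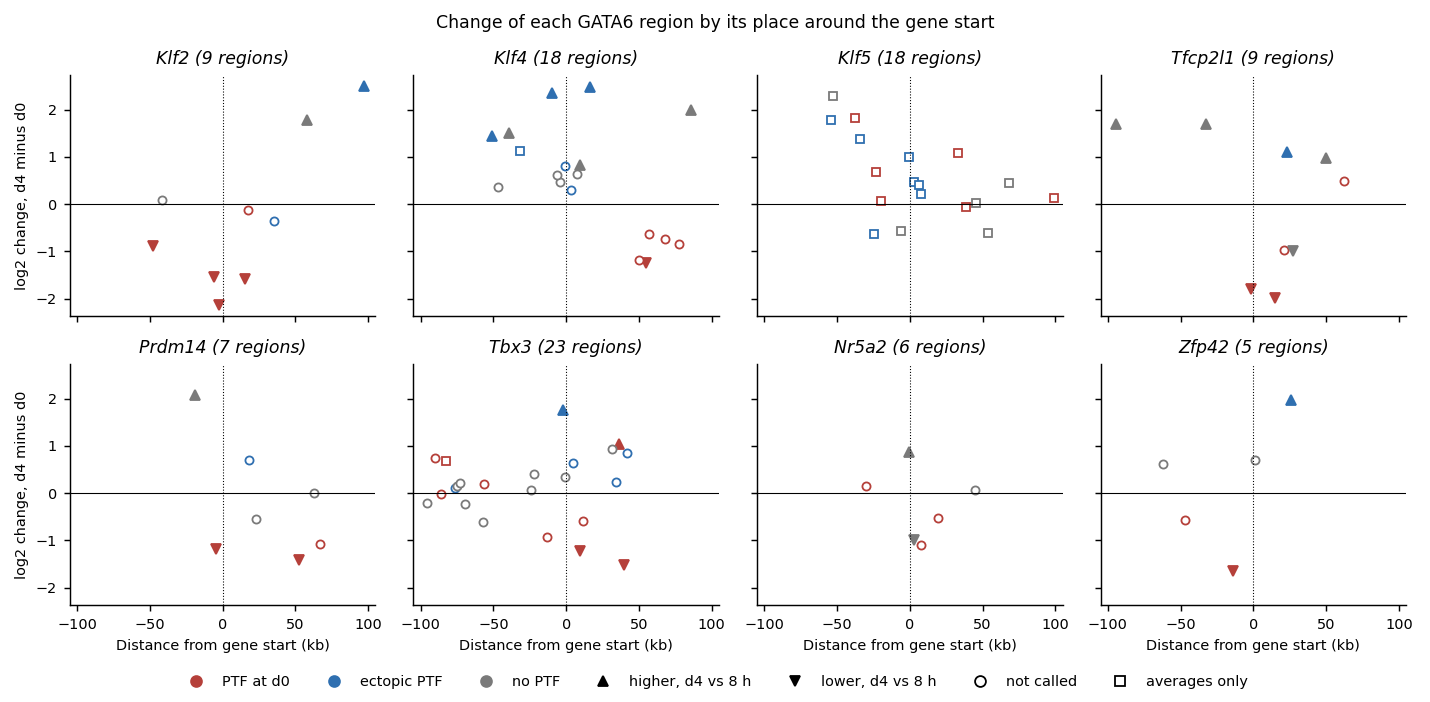
Log2 change of RPM + 0.03 from d0 to d4 of every region against its distance from the gene start in kb, by locus, coloured by PTF class. Triangles mark regions that limma called higher (up) or lower (down) at d4 against 8 h, and squares regions known from averages only, among them all 18 at Klf5.

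*Klf2* lost the most at its nearest region. Klf2 -2.8 kb (chr8:72315857-72316655, intergenic, Transient, PTF at d0, no SOX17) held 0.641, 1.17 and 0.577 RPM in the 8 h libraries, 0.324, 0.338 and 0.284 at d2 and 0.160 and 0.151 at d4. The groups did not overlap at either time. It fell by 1.19 on the log2 scale at d2 (SE 0.34, adjusted p = 0.00146, limma) and by 2.09 at d4 (SE 0.38, adjusted p = 5.04e-07). The call at d2 was lost without the 8 h library of 4973 RPM (-0.89, adjusted p = 0.0365). limma gave each region the same standard error, 0.34 for 3 libraries against 3 and 0.38 for 2 against 3. In this fit it found no difference in spread between regions, but after centring it did. With its own variance, Klf2 -2.8 kb had an adjusted p of 0.00192 at d4 (limma). XEN cells held 0.231 and 0.194 RPM there.

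Klf2 +96.9 kb (chr8:72415311-72416462, nearest protein-coding gene *Eps15l1*), an Early&Constant region with ectopic PTF and SOX17, went the other way. It held 0.147, 0.244 and 0.244 RPM at 8 h, 2.08, 2.48 and 1.29 at d2 and 1.496 and 1.66 at d4, with no overlap. The rise was 3.01 at d2 (adjusted p = 6.47e-17, limma) and 2.76 at d4 (adjusted p = 2.33e-11, or 0.000703 with the region's own variance). XEN cells, at 0.531 and 0.503 RPM, were lower than d4 by 1.56 on the log2 scale (adjusted p = 0.00255, limma). Klf2 -47.5 kb, the region with the highest d0 signal (0.942 RPM), still had 1.44, 1.35 and 1.19 RPM at d2 but 0.417 and 0.568 at d4. Its fall against 8 h passed narrowly, at -1.003 (adjusted p = 0.0216, limma), and did not without either of 2 libraries (8 h, -0.76; d4, -0.79).

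At *Klf4*, Klf4 +54.5 kb (chr4:55476864-55479015, intergenic, Transient, PTF at d0) had the highest d0 signal, 1.38 RPM, and the largest fall. The 8 h libraries held 0.902, 1.64 and 1.08 RPM, the d2 libraries 1.14, 1.36 and 1.03, and the d4 libraries 0.513 and 0.613. Signal was thus held to d2 and lay below every 8 h library at d4. The change at d4 was -1.02 (adjusted p = 0.0193, limma) and lost its call when any of 3 libraries was left out, at -1.14 to -0.78. The largest rise was at Klf4 +16.3 kb (chr4:55515487-55516878), Early&Constant with ectopic PTF and SOX17. It went from 0.176, 0.197 and 0.277 RPM at 8 h to 1.67 and 1.49 at d4, a change of 2.73 (adjusted p = 4.19e-11, limma), and XEN cells still held 1.06 and 1.32. The region next to the gene start, Klf4 -0.5 kb, held 0.693, 1.44 and 0.727 RPM at 8 h and 1.80 and 1.71 at d4, which did not pass the size threshold (0.94) but did without the 8 h library of 4973 RPM (1.27, adjusted p = 0.00657, limma).

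At *Klf5*, known from averages only, 13 of 18 regions peaked at d2. The median change from d0 was 1.01 at d2 and 0.43 at d4, against 0.69 and 0.52 over all regions. In the averages 5 of the 18 were over 2-fold higher at d4 (27.8%, against 31.0% of all regions) and 0 over 2-fold lower (7.27% of all regions), which could not be tested. The region at the gene start, Klf5 -0.3 kb (chr14:99298220-99298645, Transient, ectopic PTF, SOX17), also had the highest d0 signal of the locus. It stood at 0.864 RPM at d0, 0.839 at 8 h, 1.29 at d1, 2.13 at d2, 1.75 at d4 and 1.20 in XEN. The largest rise was at Klf5 -52.8 kb, in an intron of *Pibf1*, with 0.0735 RPM at d0, 0.556 at d2 and 0.479 at d4. The largest fall was small, from 0.164 to 0.0955 RPM at Klf5 -24.7 kb, after 0.279 at d1.

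At *Tfcp2l1*, limma called 4 of 9 regions higher and 3 lower at d4 against 8 h (2 and 4 after centring). The higher ones included Tfcp2l1 +22.9 kb, in an intron, which lost the call with centring. Other regions in introns and just upstream of the start, 1 of them with high d0 signal, stood lower at d4. Before centring none of them was called lower at d2. Tfcp2l1 -1.5 kb (chr1:118626226-118626755, Transient, PTF at d0, SOX17) held 0.190, 0.531 and 0.370 RPM at 8 h, 0.402, 0.400 and 0.288 at d2 and 0.0962 and 0.0754 at d4. It fell by 1.67 at d4 (adjusted p = 6.95e-05, limma). Tfcp2l1 +14.9 kb, in an intron, fell by 1.84 (adjusted p = 1.09e-05, limma), from 0.304, 0.522 and 0.314 RPM to 0.0695 and 0.0955. Neither was called at d2, where their changes were 0.09 and -0.27, but after centring Tfcp2l1 +14.9 kb was called lower there too (-1.08, adjusted p = 0.000761, limma).

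Tfcp2l1 +21.3 kb (chr1:118647898-118650515, intron, Early&Constant, PTF at d0, SOX17) had the second highest d0 average among all members, 1.75 RPM, over a width of 2617 bp. Its libraries held 1.20, 2.49 and 1.49 RPM at 8 h, 2.69, 2.59 and 2.45 at d2 and 0.850 and 0.889 at d4. The d4 libraries lay below all others of the induction, and the change of -0.90 against 8 h (adjusted p = 0.0419, limma) did not pass the size threshold, while those of -1.43 after centring and of -1.12 without the 8 h library of 2650 RPM (adjusted p = 0.0167) did. Tfcp2l1 -94.4 kb, in an intron of *Clasp1* and without a listed GATA6 or OCT:SOX match, rose from 0.0237, 0.0094 and 0.0375 RPM to 0.160 and 0.131 (1.74, adjusted p = 3.17e-05, limma). Its 8 h values were near the pseudocount of 0.03 RPM, and the change was 2.48 with 0.006 RPM and 0.77, without a call, with 0.15 RPM.

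*Prdm14* had the lowest median change of the 8 loci in the averages, -0.54 at d4. Prdm14 -4.8 kb, the nearest region (chr1:13131545-13132365, intergenic, Transient, PTF at d0), held 0.223, 0.437 and 0.324 RPM at 8 h and 0.0962 and 0.171 at d4. It fell by 1.12 (adjusted p = 0.00937, limma), a call that was lost without an 8 h library (-0.91) or a d4 library (-0.79) and with the region's own variance (adjusted p = 0.0857). Prdm14 +52.4 kb, downstream of the gene in an exon of the non-coding gene *Gm29283*, had the highest d0 signal and fell by 1.40 (adjusted p = 0.001, limma), from 0.271, 0.663 and 0.389 RPM to 0.187 and 0.101. That call was lost without the d4 library of 6012 RPM (-1.03, adjusted p = 0.0947, limma). Prdm14 -18.7 kb, a Late region in an exon of *Ncoa2* with SOX17, rose by 2.15 (adjusted p = 2.24e-07, limma), from 0.0475, 0.0893 and 0.0609 RPM to 0.385 and 0.392. In XEN cells it held 0.0462 and 0.0832 RPM, which overlapped 8 h and was lower than d4 by 2.17 (adjusted p = 1.2e-05).

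**Figure D4:**
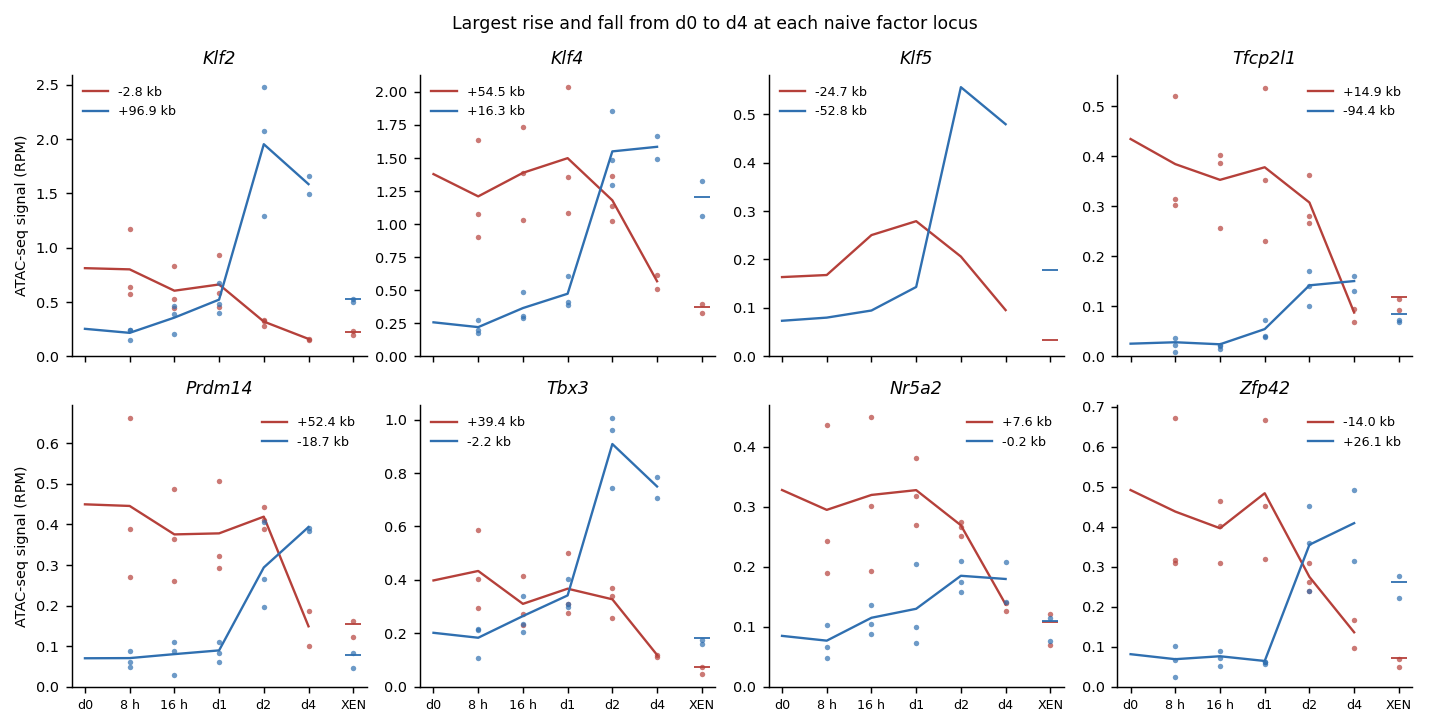
ATAC-seq signal in RPM by group for the region with the largest rise (blue) and the largest fall (red) from d0 to d4 at each locus. Lines and bars are the deposited averages, which hold 1 added read per region, and points are recovered libraries (none at d0 or at Klf5). At Klf4 +54.5 kb both d4 libraries, 0.513 and 0.613 RPM, lay below all 3 at 8 h.

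*Tbx3*, the locus with most regions, had 2 regions called higher and 2 called lower at d4, and 1 and 5 after centring. Its region with the highest d0 signal, Tbx3 -82.8 kb (chr5:119585655-119590059, Early&Constant, PTF at d0, SOX17), is 4404 bp wide, in an intron of the non-coding gene *Tbx3os1*. Per kb it held 0.46 RPM at d0, above Tbx3 -2.2 kb (0.237) and below Tbx3 -0.8 kb (0.502) and Tbx3 +39.4 kb (1.157). In the averages Tbx3 -82.8 kb stood at 2.03 RPM at d0, 5.62 at d2, 3.29 at d4 and 1.28 in XEN, and single libraries were not recovered. Its neighbour Tbx3 -90.2 kb was recovered and rose by 1.65 at d2 (adjusted p = 6.65e-06, limma), though not past the size threshold after centring (0.84). Just upstream of the gene, Tbx3 -2.2 kb (chr5:119668052-119668905, Transient, ectopic PTF, SOX17) held 0.109, 0.216 and 0.211 RPM at 8 h, 1.01, 0.962 and 0.743 at d2 and 0.705 and 0.784 at d4. It rose by 1.94 at d4 (adjusted p = 3.28e-06, limma), and XEN cells, at 0.162 and 0.177 RPM, were lower than d4 by 1.96 (adjusted p = 9.31e-05).

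The adjacent Tbx3 -0.8 kb, nearest to the start and with no PTF, held 0.242, 0.555 and 0.305 RPM at 8 h and 0.401 and 0.513 at d4, and these groups overlapped (0.36, adjusted p = 0.453, limma). Tbx3 +39.4 kb (chr5:119709862-119710206, intergenic, Transient, PTF at d0), where the GATA6 and OCT:SOX matches overlap, fell by 1.62 (adjusted p = 0.000116, limma). It held 0.404, 0.588 and 0.295 RPM at 8 h, 0.339, 0.372 and 0.258 at d2 and 0.118 and 0.111 at d4, so that d2 overlapped 8 h and d4 did not. Inside the gene, Tbx3 +9.4 kb fell by 1.07 (adjusted p = 0.0137, limma), a call lost without the 8 h library of 4973 RPM (-0.78, adjusted p = 0.11) or either d4 library (-1.11 and -1.03, adjusted p = 0.0725 and 0.0952).

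*Nr5a2* and *Zfp42* had few regions. Nr5a2 -0.2 kb, at the gene start (chr1:136960307-136961071, Early&Constant, no PTF, SOX17), held 0.0475, 0.103 and 0.0656 RPM at 8 h and 0.208 and 0.141 at d4. It rose by 1.02 (adjusted p = 0.0195, limma) and by 0.48 after centring (adjusted p = 0.168), which was not called. The call was also lost without any of 3 libraries (0.78 to 0.99). Nr5a2 +7.6 kb, in an intron with PTF at d0, held 0.190, 0.437 and 0.244 RPM at 8 h and 0.139 and 0.126 at d4 (-0.91, adjusted p = 0.0392, limma), under the size threshold before centring and past it after (-1.45) or without the 8 h library of 2650 RPM (-1.14, adjusted p = 0.0146).

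Zfp42 -14.0 kb (chr8:43320567-43321312, intergenic, Transient, PTF at d0) fell by 1.47 (adjusted p = 0.000506, limma), from 0.318, 0.672 and 0.309 RPM at 8 h to 0.0962 and 0.166 at d4. Without the d4 library of 6320 RPM it was not called (-1.16, adjusted p = 0.0604, limma). Zfp42 +26.1 kb (Early&Constant, ectopic PTF, SOX17) rose by 2.27 (adjusted p = 4.34e-08), from 0.0237, 0.0658 and 0.103 RPM to 0.315 and 0.492. The region inside the gene, Zfp42 +1.1 kb, differed from both. It held 0.347, 0.625 and 0.309 RPM at 8 h and 0.668 and 0.744 at d4, where it had no call (0.75, adjusted p = 0.0944, limma) unless the 8 h library of 4973 RPM was left out (1.04, adjusted p = 0.0286), and 0.0693 and 0.0832 in XEN cells, 2.79 below d4 (adjusted p = 8.34e-09).

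Summed over its recovered regions, signal per locus was highest at d2 in the mean of every locus with recovered libraries. The total over all recovered regions was also higher in the d2 libraries (6651 to 9505 RPM) than in those of 8 h or d4. Those held 2650 to 4973 and 6012 to 6320 RPM. At *Tbx3* the sums were 4.62, 8.22 and 5.52 RPM at 8 h, 12.8, 13.9 and 9.82 at d2, and 7.08 and 7.04 at d4. At *Tfcp2l1* they were 2.37, 5.04 and 3.21 RPM at 8 h, 5.90, 6.52 and 4.97 at d2, and 2.96 and 2.75 at d4. The d4 sums of *Klf2*, *Tfcp2l1*, *Prdm14*, *Tbx3*, *Nr5a2* and *Zfp42* lay within the range of the 8 h libraries, while those of *Klf4*, at 7.57 and 7.17 RPM, lay above it (3.66 to 6.61).

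**Figure D5:**
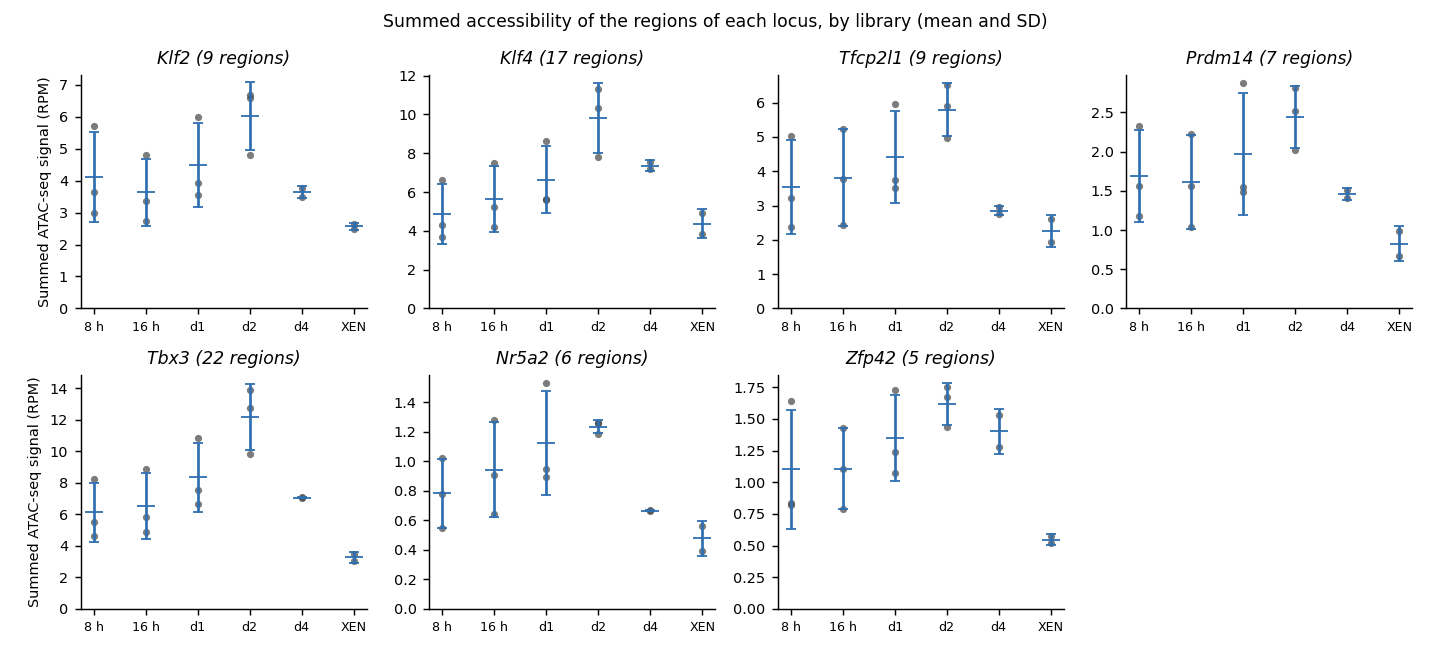
Summed ATAC-seq signal in RPM of the recovered regions of each locus in each library (points), with the mean and SD of the group (2 or 3 libraries). At Tbx3 the d2 libraries held 9.82 to 13.9 RPM and the d4 libraries 7.04 and 7.08.

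From d2 to d4, 15 of the 75 members were called lower (9.71% of all regions tested) and 0 higher (1.99%). By unadjusted p under 0.05 there were 27 lower and 0 higher, for which shares over all regions are not given. Voom called 13 lower and 0 higher (2025 and 528 of all 24727). The 15 lay at all loci tested but *Zfp42*, among them Tfcp2l1 -1.5 kb (-1.76, adjusted p = 0.000421, limma), Tfcp2l1 +21.3 kb (-1.53, adjusted p = 0.00243) and Prdm14 +52.4 kb (-1.40, adjusted p = 0.00626). Of the 14 regions below 8 h at d4, 7 were in this set, which was likewise not counted over all regions. The count of 15 was 7 after centring (5.03% of all regions tested) and 3 with quantile normalisation (824 of all 24727). It was 2 with a pseudocount of 0.006 RPM (540 of all), 5 with 0.15 RPM (709) and 0 when each region kept its own variance (69). Without either d4 library it was 2, and without the d2 libraries of 8546, 9505 and 6651 RPM in turn 7, 5 and 12. Tfcp2l1 -1.5 kb kept its call without each of these libraries, Tfcp2l1 +21.3 kb lost it without either d4 library (adjusted p = 0.0707 and 0.0605) and Prdm14 +52.4 kb without the d4 library of 6012 RPM (adjusted p = 0.268).

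Against d4, XEN cells were lower at 15 members (15.7% of all regions tested) and higher at 1 (4.66%), which was Klf2 -6.0 kb (1.10, adjusted p = 0.0433, limma). The 15 were 7 with a pseudocount of 0.15 RPM, 10 by voom, 9 and 11 without the d4 libraries of 6320 and 6012 RPM, 7 without the smaller XEN library and 16 without the other. The 1 higher was not called without any of these 4, and own variances gave 10 lower and 0 higher. Over all 24727 regions, 1630 were lower with 0.15 RPM, 2318 by voom and 1836 with own variances. *Tbx3* held 8 of the 15 and *Klf4* 4. They included regions that had risen during the induction (Klf2 +96.9 kb, Klf4 +85.8 kb, Klf4 -51.3 kb, Prdm14 -18.7 kb, Tbx3 -2.2 kb and Tbx3 +36.1 kb), of which Klf4 -51.3 kb and Tbx3 +36.1 kb lost the call without either d4 library or the smaller XEN library (-1.43 to -0.73). In the averages, XEN cells were over 2-fold lower than d0 at 23 of the 95 members (8.83% of all regions) and over 2-fold higher at 12 (27.7%). The corresponding counts for d4 were 14 lower (7.27%) and 20 higher (31.0%), and for d2, 2 lower (1.41%) and 33 higher (36.8%).

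Other gene lists give the scale. Within 100 kb of *Pou5f1*, *Sox2*, *Nanog* and *Esrrb* lay 45 regions with a median change of -0.13 from d0 to d4 in the averages, of which 26 were tested, with 5 higher and 4 lower at d4 against 8 h (0 and 7 after centring). Around 16 other genes of the naive network 141 regions had a median of 0.23, and 13 of 78 tested were higher and 11 lower (9 and 25 after centring). Around 8 formative genes 40 regions had a median of -0.05, with 1 higher and 2 lower of 16 (0 and 4 after centring). Around 8 endoderm genes 130 regions had a median of 1.56, and 33 of 47 tested were higher and 1 lower (25 and 3 after centring). Over all regions tested the shares were 31.7% higher and 7.09% lower, and 17.0% and 16.7% after centring.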

How the data were processed

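Per the methods and labels, the authors used cutadapt for trimming and Bowtie2 for alignment to mm10 (versions not given in the sources used here), removed duplicates, shifted ends for Tn5, kept fragments of nucleosome-free size and counted them per GATA6 peak. The deposited accessibility values are in RPM, averaged by the authors over a group and not divided by region width. Deposited motif matches carry a score per region. The deposited categories have no unit and come from the authors' clustering, peak calls and, for *Oct4* knockdown (not described here), DESeq2. Of 105 columns, 52 with ChIP-seq and histone data went unused.

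An average of (reads + 1) divided by library size leaves a pattern in its digits, from which the reads and sizes of 16 libraries were solved (2 of the 3 XEN samples) where values had enough digits. The solver and the limma step were tested on simulated data. The added read was removed. limma 3.58.1 (R 4.3.3) was fitted to log2(RPM + 0.03), 6 groups together, with Benjamini-Hochberg adjustment. The contrasts of 16 h with 8 h, d4 with d2 and XEN with d4 were added after seeing the data. Named regions are, per gene, the nearest to the start, the highest at d0 (in RPM not divided by width, which favours wide regions), and the largest rise and fall from d0 to d4 in the averages. Others named were chosen after their values were seen. Members and lists were chosen with earlier results of these data known. Replicates were separate cultures. Python 3.11.15 and pysam 0.24.0 were used.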

Additional observations from a re-analysis of the deposited data

How the results depend on the processing

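Between 2 and 3 libraries per group, an unresolved d0 average and a shared factor in each library limit these results. The regions higher at d1 (3 as reported) were 0 with a pseudocount of 0.006 or 0.15 RPM, with centring, with quantile normalisation and with each region's own variance, and 0 to 3 when a library was left out. Quantile normalisation gave 1 lower region at d1 in place of 0. At d2 the regions higher (25) were 10 with centring and 10 with quantile normalisation, and those lower (2) were 13 and 17, were 0 with a pseudocount of 0.15 RPM and were 1 to 2 when a library was left out. At d4 the regions higher (17) were 10 with a pseudocount of 0.15 RPM and 11 with centring. Those lower (14) were 7 with 0.15 RPM, 24 with centring, 26 with quantile normalisation and 8 to 19 when a library was left out.

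In the averages against d0, regions over 2-fold higher at d2 (33) were 15 with centring and 10 with quantile normalisation, and those lower (2) were 4 with 0.006 RPM, 1 with 0.15 RPM and 19 with either scaling. At d4, those higher (20) were 12 with 0.15 RPM and 13 with centring, and those lower (14) were 8, 30 with centring and 31 with quantile normalisation. The median change at d4 (0.21) was 0.26 with 0.006 RPM, 0.12 with 0.15 RPM, 0.26 within 50 kb, and took the opposite sign at -0.34 with centring and -0.36 with quantile normalisation. Both scalings remove the median rise of all regions by construction. Of 273 alternative values for the 21 named regions tested at d4, 237 kept sign and call, 25 lost a call and 9 gained it. Tbx3 -0.8 kb, not called, changed sign to -0.18 with centring and -0.35 with quantile normalisation. The retained added read and the own variances were chosen after seeing the data. No paired analysis was possible because the recovered libraries carry no replicate number.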
